A study of Mus musculus with 12 samples.

Results

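The genes of mouse chromosome 5 were followed across 3 groups of MC38 colon cancer cells. The set held 625 of the 9100 genes that could be tested, in the order of their start positions in the mouse assembly GRCm38.p6. A gene entered it if it lies on chromosome 5 in the reference annotation and had a probe with 1 gene symbol whose detection p-value was under 0.05 on at least 4 of the 12 arrays. Of 2151 probes for 1103 chromosome 5 genes on the array, 1023 passed, and each gene was read from its brightest passing probe. The chromosome had been picked because its genes were higher in CEACAM1-L cells than in control cells on these same arrays. The differences between CEACAM1-L and control cells are therefore a description: limma's threshold serves there only to count genes, no p-value is given, and nothing is supported by the counts. The same holds for those between CEACAM1-L and CEACAM1-S cells, which use the same CEACAM1-L arrays. The comparison of CEACAM1-S with control cells played no part in the choice of the chromosome and was tested, although it shares the control arrays. Genes named for the largest differences in that comparison had to be past its threshold already, so their adjusted p-values are descriptions only. These are Alox5ap, Babam2, Ift172, Kmt2e, Medag, Sorcs2, Tmem119 and Tpcn1, and on the lower side Csn3, Cyp3a13, Fgfbp1, Flt1, Lat2, Msx1, Nipal1 and Spink2.

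MC38 is a metastatic colon cancer line from C57BL/6 mice that lacks CEACAM1, an adhesion protein of the immunoglobulin superfamily. The first group expressed the long isoform, CEACAM1-L, which carries a long cytoplasmic tail with inhibitory tyrosine motifs. The second expressed the short isoform, CEACAM1-S, and the third was the control line without CEACAM1. Each group had 4 arrays, and all cells had been cultured for 72 h with 10% serum and selection antibiotics. The labels do not say whether a line was 1 clone or a pool of cells, nor which promoter drove the isoform, nor whether the 4 samples of a line came from separate cultures. All p-values therefore reflect only how far these arrays differed from each other, a spread that may be technical.

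Genes that share a chromosome are mostly switched on and off one by one, by their own promoters and enhancers. Long stretches of neighbours with modest shifts in the same direction are known from cells in which part of a chromosome is present in more or fewer copies, a common state in cancer cell lines and in clones grown from them. Mouse chromosomes have their centromere at one end, so position along chromosome 5 is counted from the centromere. The arrays measured RNA and not DNA, and copy number was not analysed here. Each array averaged over a whole cell sample, so that more RNA per cell and more cells with that RNA cannot be told apart.

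Between 14717 and 16071 probes were detected per array, and log2 values of any pair of arrays of 1 group correlated at 0.9856 or above across probes. Within every group the arrays fell into brighter and dimmer ones, with maximum raw intensities of 30290 to 40614 on 6 arrays and of 17443 to 27138 on the other 6. These sets, called A and B below, hold 2 arrays of each group, and the labels do not say what set them apart. The split was drawn from the normalized log2 values, by the sign of the main pattern of within-group differences between arrays. That pattern held 22.1% of the within-group spread, and the raw maxima divide the arrays in the same way. Ceacam1, on chromosome 7, set both isoform lines apart from control cells, with log2 signals of 6.70, 6.41, 6.50 and 6.58 on the CEACAM1-L arrays and of 8.58, 7.81, 8.24 and 8.68 on the CEACAM1-S arrays, against 4.87, 4.99, 4.88 and 4.96 on the control arrays. It was read as 1 signal per array, which was not resolved by isoform. The CEACAM1-L minus CEACAM1-S difference was −1.78 ± 0.17 (SE), so isoform and Ceacam1 level cannot be told apart in that comparison. Of 12 epithelial markers on the array, 4 were detected on 4 or more arrays, Krt8 on all 12, Lgals4 on 11, Cldn7 on 9 and Cdh1 on 6, and 6, among them Epcam and Vil1, on none. Of 6 mesenchymal markers 5 passed that rule, with Vim and Fn1 on all 12 arrays and Col1a2 short of it on 3. Of 4 leukocyte markers, Cd14 was detected on all 12 arrays, and Ptprc, Cd3e and Itgam on none. Of 5 endothelial markers, Kdr was detected on 10 arrays, Flt1 on 6, Cdh5 and Tek on 5 each, and Pecam1 on none.

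The RefSeq promoter sequences of 4 members are shown because their genes mark the range of the differences described here. Each runs from 250 bases before to 50 bases after the start site, 5′ to 3′ on the strand of the gene, with CG dinucleotides in capitals. Khk (GRCm38.p6 chr5:30921309-30921608, plus strand) and Stbd1 (chr5:92602801-92603100, plus strand) had the largest positive fitted differences between CEACAM1-L and control cells among members with a promoter entry, within and beyond the first 50 Mb. Cyp3a13 (chr5:137921570-137921869, minus strand) had the most negative one; the start site of its entry lies 3991 bases inside the gene's annotated 5′ end, and that of Khk 123 bases. Mvk (chr5:114444019-114444318, plus strand) was added, after its values were seen, for the neighbour that starts on the other strand within this window.
Khk: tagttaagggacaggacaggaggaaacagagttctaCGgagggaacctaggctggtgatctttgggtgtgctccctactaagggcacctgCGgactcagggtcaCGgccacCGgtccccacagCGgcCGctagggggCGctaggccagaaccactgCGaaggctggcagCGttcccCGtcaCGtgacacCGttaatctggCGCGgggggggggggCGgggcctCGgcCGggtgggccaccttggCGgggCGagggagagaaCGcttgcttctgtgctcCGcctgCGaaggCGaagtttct
Stbd1: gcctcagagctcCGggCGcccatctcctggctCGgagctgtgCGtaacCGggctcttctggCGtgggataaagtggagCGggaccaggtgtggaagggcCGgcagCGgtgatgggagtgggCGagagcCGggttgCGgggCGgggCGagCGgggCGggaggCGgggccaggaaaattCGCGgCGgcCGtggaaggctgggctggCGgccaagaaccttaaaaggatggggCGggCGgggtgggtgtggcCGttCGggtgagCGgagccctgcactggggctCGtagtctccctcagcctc
Cyp3a13: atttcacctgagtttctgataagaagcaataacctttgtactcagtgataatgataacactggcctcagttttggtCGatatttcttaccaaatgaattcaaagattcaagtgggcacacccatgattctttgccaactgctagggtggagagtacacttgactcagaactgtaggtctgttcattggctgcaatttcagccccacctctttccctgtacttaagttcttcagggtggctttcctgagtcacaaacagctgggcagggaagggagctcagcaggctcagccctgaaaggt
Mvk: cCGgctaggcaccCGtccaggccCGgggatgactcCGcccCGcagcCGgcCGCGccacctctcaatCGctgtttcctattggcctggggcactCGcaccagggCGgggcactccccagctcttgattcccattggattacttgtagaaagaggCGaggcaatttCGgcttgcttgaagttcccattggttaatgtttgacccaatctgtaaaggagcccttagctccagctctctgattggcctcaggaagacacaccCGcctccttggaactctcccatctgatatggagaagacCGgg
The Khk, Stbd1 and Mvk promoters held 23, 28 and 15 CG dinucleotides and the Cyp3a13 promoter 1. Across 27025 promoters of the RefSeq table, 1 per gene, the median was 7, and across the 534 tested chromosome 5 genes with an entry it was 24. The 534 had passed the detection filter and the 27025 were not filtered by detection. These medians, and the shares that follow, are therefore not a like comparison and show nothing particular to chromosome 5. The letters TATAAA were searched on the strand of the gene within the 50 bases before the start site and were in none of the 4, in 4 of the 534 (0.749%) and in 779 of the 27025 (2.88%).

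Across the chromosome, CEACAM1-L cells had slightly more RNA from most of its genes than control cells, with a median log2 difference of 0.26 and quartiles of −0.01 and 0.58. That median was 0.14 on the authors' deposited values, 0.17 without background correction and 0.06 without the detection filter. The difference was positive for 463 of the 625 genes (74.1%), against 47.4% of the genes on other chromosomes, whose median was −0.02. By limma's threshold, an adjusted p-value under 0.05, 264 genes (42.2%) were higher, against 18.2% of all tested genes, and 50 (8.0%) were lower, against 18.0% of all tested genes. At least 2-fold higher were 41 genes (6.56%, against 2.8% of all genes) and at least 2-fold lower were 8 (1.28%, against 2.15%). All 4 CEACAM1-L arrays lay below all 4 control arrays in 40 genes (6.4%, against 15.9%). These counts restate the choice of the chromosome and support nothing further. The middle of the distribution moved more than its width, since the interquartile range was 0.58 for chromosome 5 and 0.52 for all genes.

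CEACAM1-S cells, which the choice did not use, showed a smaller shift. Against control cells the median over the 625 genes was 0.05, and 121 genes (19.4%) were higher, against 12.2% of all tested genes. Another 56 (8.96%) were lower, against 11.4% of all tested genes. At least 2-fold higher were 6 genes (0.96%, against 1.54%), and at least 2-fold lower were 11 (1.76%, against 1.12%). Scaling of each array to its median in place of quantile normalization left 37 chromosome 5 genes higher and 17 lower in CEACAM1-L cells, and 7 higher and 10 lower in CEACAM1-S cells, both against control cells. It moved the median of all genes to −0.11 and −0.03 in these comparisons, and the chromosome 5 median for CEACAM1-L cells to 0.14. The share of all tested genes called under that scaling is not given here, so these counts cannot be read as particular to chromosome 5.

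Set directly against CEACAM1-S cells, CEACAM1-L cells had a median difference of 0.19 on chromosome 5, with 71.8% of genes positive. Of the 625, 184 genes (29.4%) were higher, against 13.2% of all tested genes, and 28 (4.48%) were lower, against 12.9%. Past 2-fold, 29 (4.64%, against 1.56% of all genes) were higher and 6 (0.96%, against 1.26%) lower. Scaling to the median gave 27 higher and 10 lower, again without the share over all genes. The median was then 0.09 on chromosome 5 and −0.11 over all genes. The chromosome 5 median was 0.12 on the authors' deposited values, 0.13 without background correction and 0.06 without the detection filter. Among the other 19 chromosomes, none had a median above that of chromosome 5 in CEACAM1-L cells against control cells, where they ranged from −0.09 on chromosome 4 to 0.07 on chromosome 9. In CEACAM1-S cells against control cells they ranged from −0.06 on chromosome 13 to 0.37 on chromosome 9, the only one above chromosome 5.

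**Figure D1:**
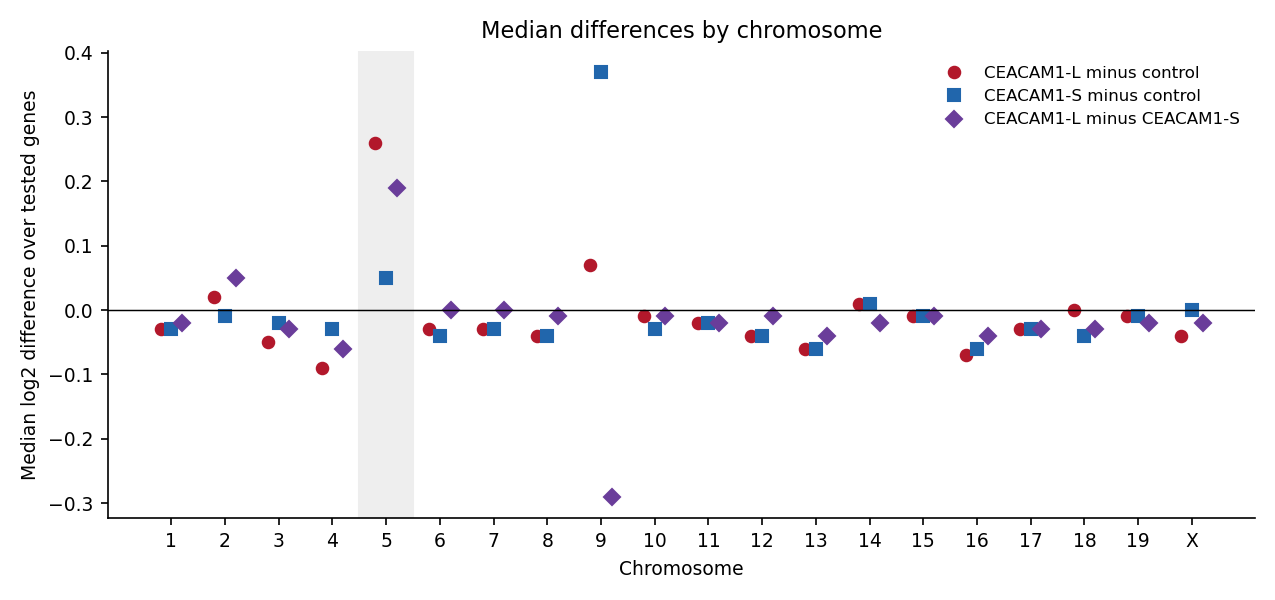
Median log2 difference over the tested genes of each chromosome (horizontal axis) for CEACAM1-L minus control (circles), CEACAM1-S minus control (squares) and CEACAM1-L minus CEACAM1-S (diamonds). Chromosome 5, shaded, stands at 0.26, 0.05 and 0.19, and chromosome 9 at 0.07, 0.37 and −0.29, while the other chromosomes lie near 0.

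The shift was not spread evenly along chromosome 5. In windows of 10 Mb with at least 8 tested genes, the median for CEACAM1-L minus control was 0.38 in the first window, 0.47 from 20 to 30 Mb, 0.62 from 30 to 40 Mb and 0.48 from 40 to 50 Mb. The 10 to 20 Mb window held 4 tested genes. Beyond 50 Mb the window medians lay between −0.03 (70 to 80 Mb) and 0.41 (60 to 70 Mb), and the 5 windows from 100 to 150 Mb between 0.17 and 0.22. For CEACAM1-S minus control the medians were 0.19, 0.25, 0.44 and 0.34 in the same windows of the first 50 Mb and 0.25 from 50 to 60 Mb. From 60 Mb on they lay between −0.13 and 0.03.

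**Figure D2:**
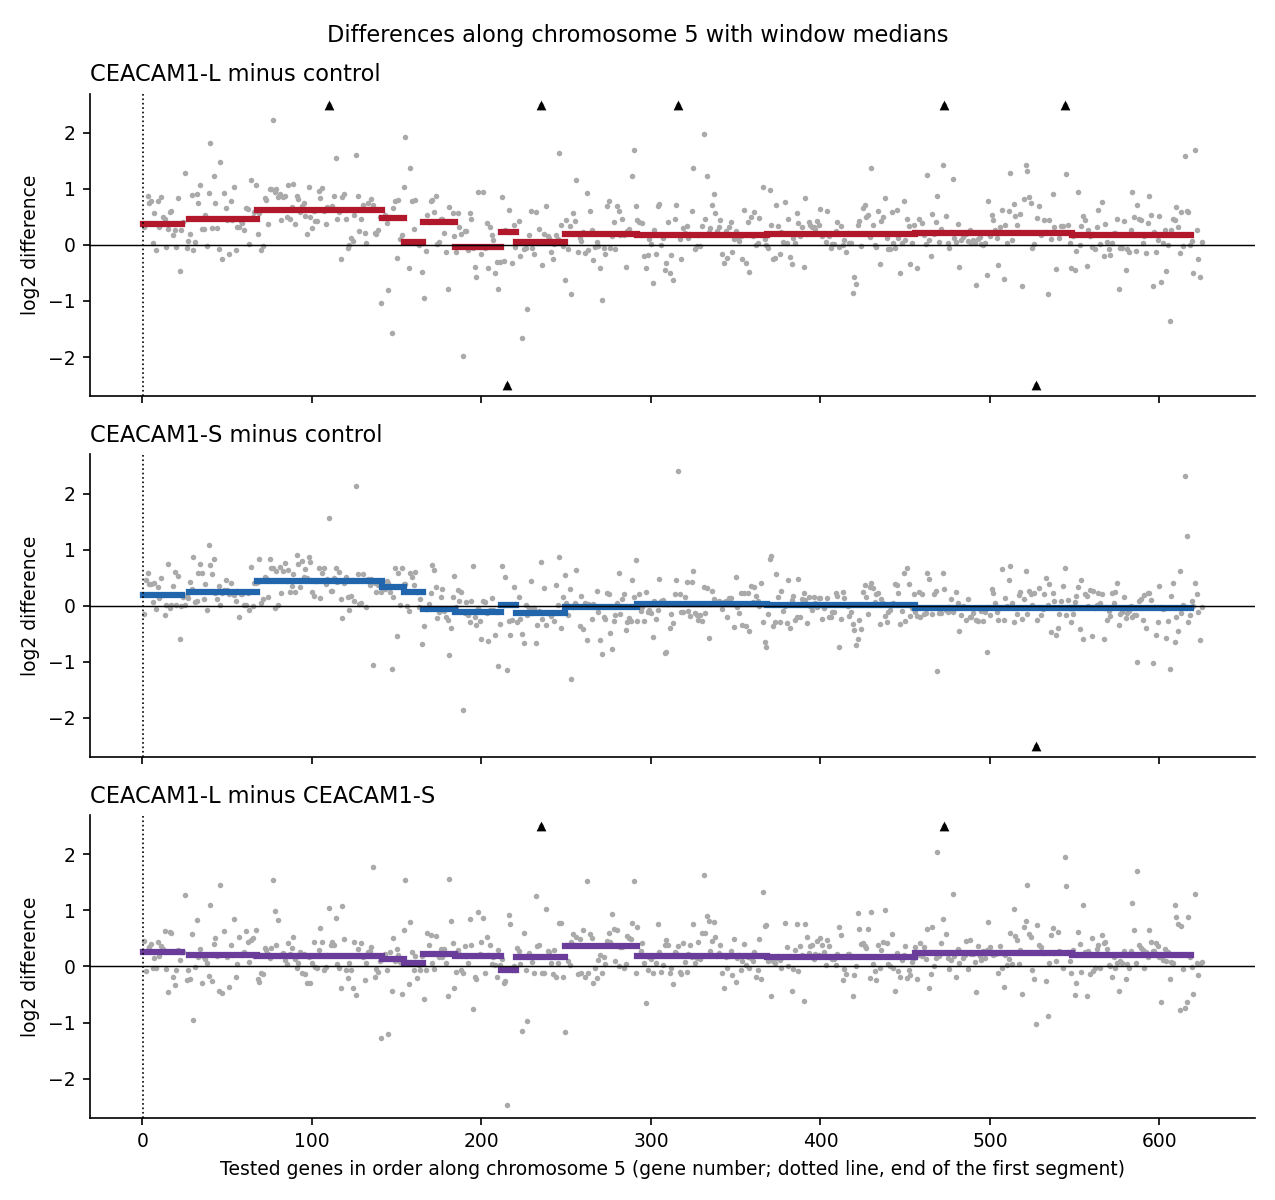
Log2 difference of each tested gene (dots) in order of position along chromosome 5 (gene number, horizontal axis), for CEACAM1-L minus control (top), CEACAM1-S minus control (middle) and CEACAM1-L minus CEACAM1-S (bottom), with a bar for the median of each 10 Mb window of at least 8 genes. Triangles mark genes beyond the plotted range. Over the first 154 genes, the bars of both isoform lines against control stand above 0. No position is to be read from the dotted line.

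A boundary at 50 Mb was set after these window medians had been seen, and it splits the chromosome into 154 genes before it and 471 beyond it. Of the 154, 73 (47.4%) were higher in CEACAM1-S cells than in control cells and 4 (2.6%) lower, with a median of 0.36 and 138 positive differences. In the same genes CEACAM1-L cells had a median of 0.52 against control cells, with 101 (65.6%) higher and 4 (2.6%) lower. Of the 471 genes beyond 50 Mb, 48 (10.2%) were higher in CEACAM1-S cells and 52 (11%) lower, beside the 12.2% and 11.4% of all genes, and the median was −0.03. The CEACAM1-L median in those genes was 0.18, with 163 (34.6%) higher and 46 (9.77%) lower. For CEACAM1-L cells against control cells, the shares over all tested genes were 18.2% higher and 18.0% lower. The medians were smaller on the authors' deposited values, 0.35 for CEACAM1-L and 0.20 for CEACAM1-S cells before the boundary and 0.09 in CEACAM1-L cells beyond it. Without background correction these medians were 0.39, 0.21 and 0.11, and without the detection filter 0.13, 0.12 and 0.04. The median difference between CEACAM1-L and CEACAM1-S cells was 0.20 before the boundary and 0.19 beyond it.

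The same pattern stood on every array. Measured from the control mean, the median over the first 154 genes was 0.53, 0.59, 0.56 and 0.51 on the CEACAM1-L arrays and 0.35, 0.36, 0.31 and 0.35 on the CEACAM1-S arrays, against 0.03, 0.01, 0.02 and −0.04 on the control arrays. No array of one group overlapped another group there. Beyond 50 Mb it was 0.19, 0.20, 0.24 and 0.14 on the CEACAM1-L arrays and −0.03, −0.01, −0.07 and −0.02 on the CEACAM1-S arrays, against −0.01, 0.03, 0.02 and −0.03 on the control arrays. There the CEACAM1-L arrays stood apart, and the ranges of the CEACAM1-S and control arrays overlapped. Over the genes of all other chromosomes, the 12 array medians lay between −0.04 and 0.02. Within array set A alone, the median of the first 154 genes was 0.55 for CEACAM1-L and 0.35 for CEACAM1-S cells against control cells, and within set B alone 0.53 and 0.33.

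**Figure D3:**
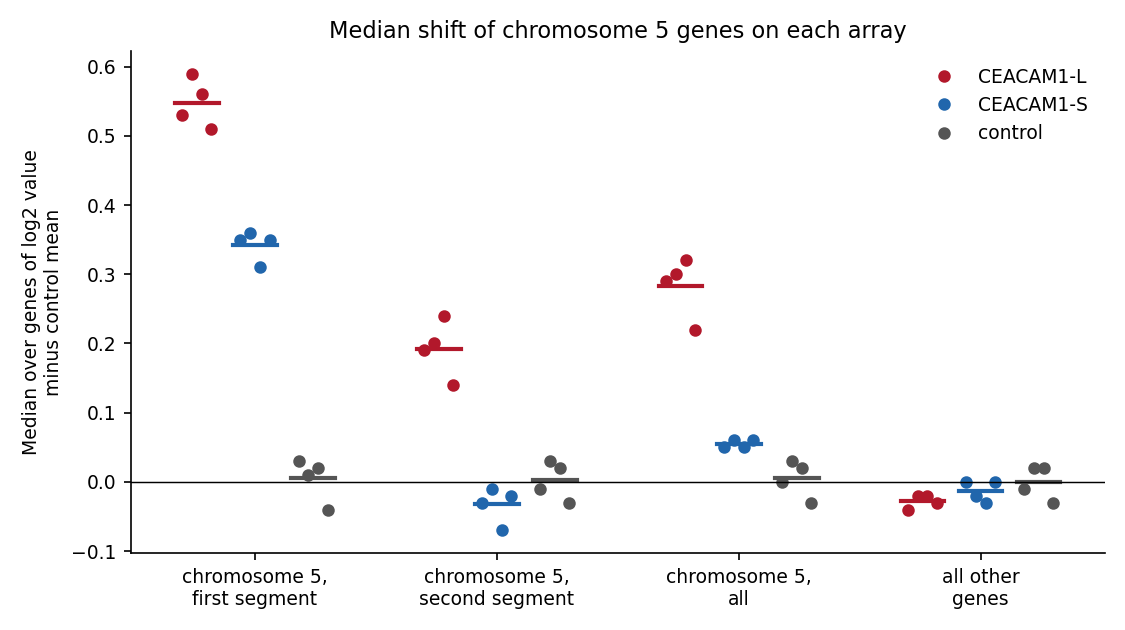
Median over genes of the log2 value minus the mean of the control arrays (vertical axis), with 1 dot per array and a bar for the mean of 4 arrays, for the first 50 Mb of chromosome 5 (first segment), the rest of it (second segment), the whole chromosome and all other genes. In the first segment the 4 CEACAM1-L dots lie at 0.51 to 0.59 and the CEACAM1-S dots at 0.31 to 0.36, and in the second the CEACAM1-S dots lie among or just under the control dots.

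Set among the 243 windows of the genome with at least 8 tested genes, the 30 to 40 Mb window of chromosome 5 had the highest median for CEACAM1-L minus control and the third highest for CEACAM1-S minus control. For CEACAM1-L minus control, a median of 0.2 or more was reached by 9 of the 14 such windows of chromosome 5 and by 8 of the 229 on other chromosomes, of which the highest was 0.43 on chromosome 14. For CEACAM1-S minus control it was reached by 4 of 14 and by 15 of 229, of which 13 lie on chromosome 9.

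The longest unbroken stretch of neighbours with higher values in CEACAM1-L than in control cells ran over 45 genes, from Cenpa to Mfsd10 (chr5:30666877-34637215), of which 42 were past the threshold. In CEACAM1-S cells the longest such stretch ran over 39 genes, from Preb to Nop14 (chr5:30951667-34660148), of which 27 were past it. Both lie in the same 30 to 40 Mb window, and both comparisons use the same control arrays. The longest stretch of lower values held 5 genes in CEACAM1-L cells and 13 in those with CEACAM1-S, with 1 gene past the threshold in each.

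Cenpa opens the stretch. It encodes the histone H3 variant that marks the centromere, and its log2 signal was 13.42, 13.58, 13.69 and 13.39 in CEACAM1-L cells and 13.29, 13.01, 13.19 and 13.27 in CEACAM1-S cells, against 12.59, 12.84, 12.76 and 12.52 in control cells. All arrays of either isoform line lay above all control arrays, by 0.84 ± 0.09 (SE) in CEACAM1-L cells and by 0.51 ± 0.09 in CEACAM1-S cells (limma, adjusted p = 2.35e-04). Preb, a regulator of vesicle export from the endoplasmic reticulum, gave 11.67, 11.39, 11.54 and 11.54 in CEACAM1-L cells and 11.14, 11.40, 11.03 and 11.03 in CEACAM1-S cells, against 10.45, 10.49, 10.63 and 10.59 in control cells. Its groups did not overlap with control either, and the differences were 0.99 ± 0.09 and 0.61 ± 0.09 (limma, adjusted p = 3.02e-05). Nop14, a factor of small ribosomal subunit assembly, closes the CEACAM1-S stretch, with −0.26 ± 0.18 in CEACAM1-L cells and 0.12 ± 0.18 in CEACAM1-S cells, the second of which was not past the threshold (limma, adjusted p = 0.686).

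In the same window, Ift172, an intraflagellar transport protein of the cilium, gave 9.23, 9.24, 9.27 and 9.23 in CEACAM1-L cells and 9.34, 8.96, 9.44 and 9.33 in CEACAM1-S cells, against 8.25, 8.56, 8.43 and 8.22 in control cells. The isoform lines were both well above control, by 0.88 ± 0.12 and 0.90 ± 0.12 (limma, adjusted p = 2.06e-06 for CEACAM1-S), and differed from each other by −0.03 ± 0.12. Babam2, a subunit of the BRCA1-A complex that acts at DNA breaks, gave 9.75, 9.75, 9.67 and 9.71 in CEACAM1-L cells and 9.59, 9.75, 9.48 and 9.39 in CEACAM1-S cells, against 8.65, 8.53, 8.77 and 8.78 in control cells. That is 1.04 ± 0.10 and 0.87 ± 0.10 above control (limma, adjusted p = 6.27e-07 for CEACAM1-S). The mitochondrial inner membrane protein Letm1 differed by 0.60 ± 0.14 and 0.67 ± 0.14 (limma, adjusted p = 0.00108 for CEACAM1-S), and Mfsd10, a transporter of the major facilitator family, by 0.58 ± 0.09 and 0.60 ± 0.09 (limma, adjusted p = 1.71e-05 for CEACAM1-S). The CEACAM1-L minus CEACAM1-S differences of these 4 genes lay between −0.07 and 0.17.

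Nearer the centromere, Cyp51, the sterol demethylase, was 0.86 ± 0.11 higher in CEACAM1-L cells and 0.50 ± 0.11 higher in CEACAM1-S cells (limma, adjusted p = 0.00206 for CEACAM1-S). Psmc2, an ATPase of the proteasome cap and the gene with the brightest mean signal of its window, had 12.74, 12.88, 12.63 and 12.66 in CEACAM1-L cells and 12.68, 12.60, 12.37 and 12.69 in CEACAM1-S cells, against 12.28, 12.29, 12.12 and 12.10 in control cells. The shift was narrow, 0.53 ± 0.09 and 0.39 ± 0.09, but all 4 arrays of each isoform line were above the control arrays (limma, adjusted p = 0.00234 for CEACAM1-S). Kmt2e and Srpk2 overlap at their ends in the annotation. Kmt2e, a SET-domain chromatin regulator, had 7.38, 7.34, 7.62 and 7.37 in CEACAM1-L cells and 7.5, 7.70, 7.71 and 7.47 in CEACAM1-S cells, against 6.91, 6.37, 6.42 and 6.35 in control cells, which is 0.92 ± 0.15 and 1.08 ± 0.15 above control (limma, adjusted p = 7.47e-06 for CEACAM1-S). Srpk2, a kinase of splicing factors, had 8.97, 8.79, 8.35 and 8.51 in CEACAM1-L cells and 7.58, 7.70, 7.38 and 7.60 in CEACAM1-S cells, against 6.92, 6.88, 6.63 and 6.93 in control cells. Its CEACAM1-L values stood above the CEACAM1-S values, and those above control, by 1.82 ± 0.14 for CEACAM1-L and 0.72 ± 0.14 for CEACAM1-S (limma, adjusted p = 5.28e-04).

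Some genes of the first 50 Mb went well past the shared shift. Khk (chr5:30921436-30931248), the ketohexokinase that phosphorylates fructose, had log2 signals of 9.26, 8.51, 8.66 and 8.34 in CEACAM1-L cells and 7.24, 7.40, 6.93 and 6.98 in CEACAM1-S cells, against 6.49, 6.50, 6.29 and 6.55 in control cells. The 3 groups did not overlap, with differences from control of 2.23 ± 0.17, a 4.7-fold change, and 0.68 ± 0.17 (limma, adjusted p = 0.00414 for CEACAM1-S). Sorcs2 (chr5:36017180-36398197), a sorting receptor of the VPS10 family, was the reverse in order, with 6.62, 6.90, 7.09 and 6.77 in CEACAM1-L cells and 7.39, 7.15, 7.29 and 7.60 in CEACAM1-S cells, against 5.07, 5.34, 5.15 and 5.38 in control cells. It was 3.06-fold higher in CEACAM1-L cells and 4.37-fold higher in CEACAM1-S cells (2.13 ± 0.16, limma, adjusted p = 4.08e-10), and −0.51 ± 0.16 is the CEACAM1-L minus CEACAM1-S difference. Insig1, which holds back sterol synthesis in the endoplasmic reticulum, differed by 1.16 ± 0.16 and 0.69 ± 0.16 (limma, adjusted p = 0.00205 for CEACAM1-S).

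Other genes within the first 50 Mb broke with their neighbours. Msx1 (chr5:37820491-37824585), a homeobox repressor of differentiation, had 8.07, 8.13, 8.01 and 7.40 in CEACAM1-L cells and 6.06, 6.60, 5.90 and 5.98 in CEACAM1-S cells, against 7.15, 7.27, 7.20 and 7.17 in control cells. All CEACAM1-L arrays were above and all CEACAM1-S arrays below the control arrays, by 0.71 ± 0.17 and −1.06 ± 0.17 (limma, adjusted p = 5.84e-05 for CEACAM1-S). Fgfbp1, a carrier protein for fibroblast growth factors, had 4.56, 4.64, 4.37 and 4.40 in CEACAM1-L cells, where no array detected it, and 5.21, 4.91, 4.64 and 4.98 in CEACAM1-S cells, against 5.92, 6.23, 5.46 and 6.64 in control cells. It was at least 2.41-fold lower in CEACAM1-L cells, a bound set by the lowest detected signal on each array, and fell by 1.13 in CEACAM1-S cells (limma, adjusted p = 2.10e-04). Zfp518b, a zinc finger protein, was lower in CEACAM1-L cells, by −1.04 ± 0.13, with 0.24 ± 0.13 in CEACAM1-S cells (limma, adjusted p = 0.21). Cc2d2a, a protein of the ciliary transition zone, gave −0.80 ± 0.19 and 0.41 ± 0.19 (limma, adjusted p = 0.136 for CEACAM1-S).

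**Figure D4:**
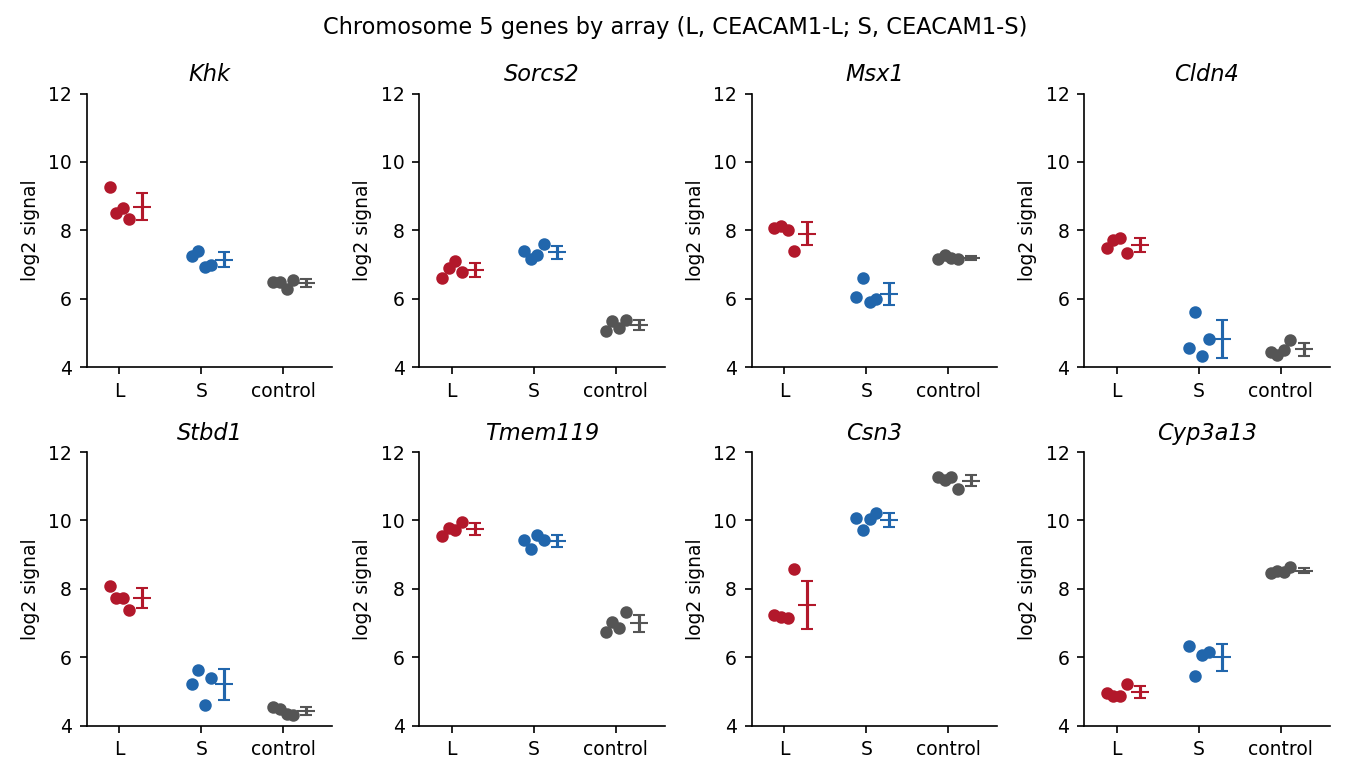
Log2 signal of 8 chromosome 5 genes on each array (dots; L, CEACAM1-L; S, CEACAM1-S), with the mean and SD of 4 arrays beside them. Khk, Cldn4 and Stbd1 are highest in CEACAM1-L cells, Sorcs2 and Tmem119 are higher in both isoform lines than in control cells, Msx1 lies above control in one and below it in the other, and Csn3 and Cyp3a13 are highest in control cells.

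The genes between 49 and 54 Mb, where the CEACAM1-S medians turned, are given as a description with no p-value, since most were chosen after their values had been seen. Adgra3, an adhesion receptor of the G protein-coupled family that starts at chr5:49959951, had 9.72, 9.66, 9.92 and 9.65 in CEACAM1-L cells and 8.99, 9.31, 8.97 and 9.09 in CEACAM1-S cells, against 8.74, 8.65, 8.85 and 8.57 in control cells. Both lines were above control, by 1.03 ± 0.11 and 0.39 ± 0.11. Pi4k2b, a phosphatidylinositol kinase that starts at chr5:52741561, had 10.42, 10.49, 10.46 and 10.34 in CEACAM1-L cells and 9.40, 9.78, 9.71 and 9.66 in CEACAM1-S cells, against 8.97, 9.13, 9.0 and 9.09 in control cells. The 3 groups were again separate, with 1.38 ± 0.10 and 0.59 ± 0.10. Smim20, a small mitochondrial protein of cytochrome oxidase assembly that starts at chr5:53267106, had 10.09, 10.23, 10.19 and 9.98 in CEACAM1-L cells and 10.01, 9.78, 9.83 and 10.10 in CEACAM1-S cells, against 9.0, 9.40, 9.33 and 9.58 in control cells. Its differences were 0.80 ± 0.11 and 0.60 ± 0.11, and no CEACAM1 array overlapped the control arrays. The next 3 tested genes had small differences in both lines. Rbpj, the DNA-binding partner of Notch, gave 0.04 ± 0.19 in CEACAM1-L cells and 0.25 ± 0.19 in CEACAM1-S cells. Tbc1d19 gave 0.00 ± 0.25 and −0.03 ± 0.25, and Stim2, a calcium sensor of the endoplasmic reticulum, 0.04 ± 0.16 and 0.11 ± 0.16. Rbpj and Tbc1d19 were dim probes, detected on 8 and 11 of the 12 arrays. No end point can be read from them.

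Between these points lies Ppargc1a (chr5:51454249-52115853), the coactivator that drives mitochondrial gene programmes, with 6.36, 6.40, 6.48 and 6.13 in CEACAM1-L cells and 4.5, 5.30, 5.0 and 4.42 in CEACAM1-S cells, against 4.32, 4.46, 4.63 and 4.24 in control cells. It was detected on all 4 CEACAM1-L arrays, on 2 CEACAM1-S arrays and on no array of the control line, which puts it at least 2.91-fold higher in CEACAM1-L than in control cells.

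Beyond 50 Mb, Stbd1 (chr5:92603051-92606579) had the largest positive fitted difference of the chromosome between CEACAM1-L and control cells. It encodes a protein that anchors glycogen to membranes, and its log2 signal was 8.07, 7.73, 7.74 and 7.38 in CEACAM1-L cells and 5.22, 5.64, 4.59 and 5.40 in CEACAM1-S cells, against 4.56, 4.5, 4.34 and 4.31 in control cells. No control array detected it, which set its level in CEACAM1-L cells at least 7.61-fold above control and that in CEACAM1-S cells at least 1.33-fold above it (limma, adjusted p = 0.00523). Cldn4 (chr5:134945123-134946934), a claudin of tight junctions, had 7.47, 7.71, 7.79 and 7.33 in CEACAM1-L cells and 4.55, 5.60, 4.33 and 4.82 in CEACAM1-S cells, against 4.44, 4.36, 4.5 and 4.79 in control cells. No control array detected this gene either, which puts its level at least 6.84-fold above control in CEACAM1-L cells, beside 0.30 ± 0.22 in CEACAM1-S cells (limma, adjusted p = 0.353), whose replicate 2 was highest of its group. Gpr146, a receptor of the G protein-coupled family known from liver cholesterol handling, had 7.33, 7.33, 7.72 and 7.10 in CEACAM1-L cells and 5.10, 5.95, 5.32 and 5.26 in CEACAM1-S cells, against 4.77, 4.73, 4.72 and 4.75 in control cells. Every CEACAM1-L array lay above every CEACAM1-S array and those above every control array, by 2.63 ± 0.19 and 0.67 ± 0.19 (limma, adjusted p = 0.0105 for CEACAM1-S).

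Tmem119 and Alox5ap were higher in both isoform lines than in control cells. Tmem119 (chr5:113793729-113800396), a membrane protein known from bone cells and microglia, had 9.55, 9.79, 9.72 and 9.96 in CEACAM1-L cells and 9.43, 9.15, 9.56 and 9.42 in CEACAM1-S cells, against 6.75, 7.03, 6.85 and 7.32 in control cells. That is 6.81-fold and 5.3-fold above control (2.77 ± 0.13 and 2.40 ± 0.13; limma, adjusted p = 8.24e-13 for CEACAM1-S). Alox5ap (chr5:149265004-149288153), the partner of 5-lipoxygenase in leukotriene synthesis, had 8.11, 8.01, 7.99 and 8.34 in CEACAM1-L cells and 9.01, 8.5, 8.90 and 9.0 in CEACAM1-S cells, against 6.26, 6.80, 6.63 and 6.45 in control cells. CEACAM1-S cells were the highest here, at 2.32 ± 0.15 above control (limma, adjusted p = 1.09e-11), and CEACAM1-L cells stood 1.58 ± 0.15 above control. Medag, a gene of fat cell development on the same part of the chromosome, was likewise higher in CEACAM1-S cells, by 1.24 ± 0.18 (limma, adjusted p = 1.22e-05), with 0.60 ± 0.18 in CEACAM1-L cells. Tpcn1, a channel of endosomes, rose by 0.88 ± 0.11 in CEACAM1-S cells (limma, adjusted p = 1.32e-06), with 0.35 ± 0.11 in CEACAM1-L cells, and Sgcb, a sarcoglycan, rose by 0.70 ± 0.15 (limma, adjusted p = 9.50e-04), with −0.05 ± 0.15 in CEACAM1-L cells.

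Several genes beyond 50 Mb had differences of opposite sign in the isoform lines, as Msx1 did before it. Lat2, an adaptor of immune receptor signalling, had 9.38, 9.34, 9.31 and 8.92 in CEACAM1-L cells and 6.87, 8.10, 6.92 and 6.89 in CEACAM1-S cells, against 8.26, 8.47, 8.39 and 8.34 in control cells. CEACAM1-L arrays were all above control and CEACAM1-S arrays all below it, with replicate 2 nearest, by 0.87 ± 0.19 and −1.17 ± 0.19 (limma, adjusted p = 5.52e-05 for CEACAM1-S). Smurf1, a ubiquitin ligase of the bone morphogenetic protein pathway, had 8.16, 8.15, 7.91 and 7.84 in CEACAM1-L cells and 6.25, 6.09, 6.51 and 6.36 in CEACAM1-S cells, against 7.26, 7.35, 7.27 and 7.34 in control cells. The groups were again separate in that order, by 0.71 ± 0.14 and −1.01 ± 0.14 (limma, adjusted p = 8.24e-06 for CEACAM1-S). Rbm47, an RNA-binding protein, gave 0.67 ± 0.17 and −0.88 ± 0.17 (limma, adjusted p = 4.36e-04 for CEACAM1-S). Hsph1, a large heat shock protein, gave 0.59 ± 0.11 and −0.29 ± 0.11, of which the CEACAM1-S value was not past the threshold (limma, adjusted p = 0.0582) unless the array set was a block (0.015). Grsf1, an RNA-binding protein of mitochondria, gave 0.23 ± 0.12 in CEACAM1-L cells, which was not past the threshold, and −0.53 ± 0.12 in CEACAM1-S cells (limma, adjusted p = 0.0021).

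Other members had far less RNA in the isoform lines. Csn3 (chr5:87925579-87932550), the milk protein kappa-casein, had 7.24, 7.17, 7.15 and 8.59 in CEACAM1-L cells and 10.08, 9.73, 10.03 and 10.23 in CEACAM1-S cells, against 11.26, 11.19, 11.27 and 10.92 in control cells. The 3 groups did not overlap, and the fourth CEACAM1-L array lay well above the other CEACAM1-L arrays. Csn3 was 12.3-fold lower in CEACAM1-L cells (−3.62 ± 0.21) and fell by 1.14 in CEACAM1-S cells (limma, adjusted p = 1.77e-04). Cyp3a13 (chr5:137892933-137925610), a drug-metabolizing cytochrome P450, had 4.96, 4.87, 4.88 and 5.22 in CEACAM1-L cells and 6.34, 5.44, 6.07 and 6.15 in CEACAM1-S cells, against 8.46, 8.53, 8.5 and 8.65 in control cells. It was 11.7-fold lower in CEACAM1-L cells and 5.8-fold lower in CEACAM1-S cells (−2.54 ± 0.18; limma, adjusted p = 8.40e-11). Its CEACAM1-L signals were close to the means of genes detected on only 4 arrays, 4.59 to 4.80, so the fold there may be understated. Nipal1, a magnesium transporter, had 5.05, 4.79, 4.88 and 4.86 in CEACAM1-L cells and 5.18, 4.81, 5.12 and 4.94 in CEACAM1-S cells, against 6.77, 7.08, 6.82 and 6.82 in control cells. Both lines lay below control, by −1.98 ± 0.16 and −1.86 ± 0.16 (limma, adjusted p = 5.10e-09 for CEACAM1-S). The Nipal1 signals of both isoform lines were close to that dim range too. The falls may therefore be understated, and whether they were alike cannot be judged. Cdkl2, a kinase related to the cyclin-dependent ones, gave −1.14 ± 0.17 in CEACAM1-L cells and −0.17 ± 0.17 in those with CEACAM1-S (limma, adjusted p = 0.516), and Spink2, a protease inhibitor, −0.79 ± 0.24 and −1.08 ± 0.24 (limma, adjusted p = 0.00173 for CEACAM1-S). Mblac1, a metallo-beta-lactamase domain protein, gave −0.88 ± 0.18 and 0.01 ± 0.18 (limma, adjusted p = 0.987 for CEACAM1-S).

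The counts of the function lists below stand beside 42.2% of the chromosome 5 genes higher and 8.0% lower in CEACAM1-L cells, and 19.4% and 8.96% in CEACAM1-S cells, with medians of 0.26 and 0.05. Over all tested genes the shares were 18.2% and 18.0%, then 12.2% and 11.4%, and both medians −0.01. The counts are descriptions, and nothing is called particular to a list.

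Grouped by function, growth factor receptors came first among the signalling genes. Of 9 receptor tyrosine kinase genes listed, 5 were tested. In CEACAM1-L cells 3 were higher than control and 1 lower, and in CEACAM1-S cells 1 was higher and 1 lower, with medians of 0.94 and 0.08. Ephb4, a receptor of ephrin B2, had 10.85, 10.44, 10.43 and 10.58 in CEACAM1-L cells and 9.90, 10.14, 10.16 and 9.76 in CEACAM1-S cells, against 9.28, 9.18, 9.19 and 9.50 in control cells, and the groups did not overlap. Its differences were 1.29 ± 0.11 and 0.70 ± 0.11 (limma, adjusted p = 4.81e-05 for CEACAM1-S). Pdgfra, the alpha receptor of platelet-derived growth factor, had 8.75, 8.99, 8.96 and 8.91 in CEACAM1-L cells and 7.89, 8.43, 8.02 and 7.80 in CEACAM1-S cells, against 8.19, 7.91, 7.93 and 7.81 in control cells. Only the CEACAM1-L arrays stood apart, with 0.94 ± 0.13, and CEACAM1-S cells gave 0.08 ± 0.13 (limma, adjusted p = 0.745). Fgfrl1, a fibroblast growth factor receptor without a kinase domain, gave 1.69 ± 0.19 and 0.16 ± 0.19 (limma, adjusted p = 0.593 for CEACAM1-S). Flt1, a receptor of vascular endothelial growth factor, was detected on no CEACAM1-L array, stood at least 2.25-fold lower there than in control cells, and fell by 1.13 in CEACAM1-S cells (limma, adjusted p = 1.45e-04). Kdr, the other such receptor, was dim in every group, with −0.06 ± 0.22 and 0.06 ± 0.22 (limma, adjusted p = 0.878 for CEACAM1-S).

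Of the growth factor ligands, 8 were on the array and 2 were tested, and both fell in CEACAM1-S cells. Btc, the ErbB ligand betacellulin, gave −0.08 ± 0.19 in CEACAM1-L cells and −0.67 ± 0.19 in those with CEACAM1-S (limma, adjusted p = 0.01), and Pdgfa, a ligand of Pdgfra, −0.43 ± 0.13 and −0.53 ± 0.13 (limma, adjusted p = 0.00403 for CEACAM1-S). Of 10 CXC chemokine genes on the array, 2 were tested and both fell in CEACAM1-S cells. Cxcl1, which attracts neutrophils, had 7.72, 7.58, 7.85 and 7.91 in CEACAM1-L cells and 9.22, 8.44, 9.07 and 8.95 in CEACAM1-S cells, against 9.32, 9.36, 9.38 and 9.66 in control cells. It was lower in both lines, most in CEACAM1-L cells, by −1.66 ± 0.14 and −0.51 ± 0.14 (limma, adjusted p = 0.00866 for CEACAM1-S). Cxcl10, which attracts T cells and is induced by interferon, had 9.92, 9.93, 10.26 and 9.44 in CEACAM1-L cells and 8.62, 8.61, 8.62 and 8.71 in CEACAM1-S cells, against 8.98, 9.47, 9.52 and 9.29 in control cells. CEACAM1-S arrays lay below all control arrays, at −0.67 ± 0.14 (limma, adjusted p = 6.63e-04), and CEACAM1-L cells at 0.58 ± 0.14. The 6 guanylate-binding protein genes on the array gave 0 tested genes, as none had a probe past the detection filter. Of 6 tested oligoadenylate synthetase genes, which sense viral RNA, 2 were higher in CEACAM1-L cells, led by Oasl2 at 1.23 ± 0.18, with 0.32 ± 0.18 in CEACAM1-S cells (limma, adjusted p = 0.227), and Oas2 at 0.71 ± 0.21, with 0.56 ± 0.21 (limma, adjusted p = 0.0543 for CEACAM1-S). In CEACAM1-S cells 0 rose and 1, Oasl1, fell, by 0.58 (limma, adjusted p = 0.0353).

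Among metabolic genes, 5 of the 6 genes listed for sterol synthesis and handling on the array were tested, and 4 were higher in CEACAM1-L cells and 3 in those with CEACAM1-S, with 0 lower in either. Mvk, the mevalonate kinase, had 6.61, 7.38, 7.60 and 7.25 in CEACAM1-L cells and 6.69, 6.06, 6.30 and 6.76 in CEACAM1-S cells, against 5.69, 6.30, 5.78 and 5.54 in control cells, where one CEACAM1-S array lay within the control range. It gave 1.38 ± 0.21 and 0.62 ± 0.21 (limma, adjusted p = 0.0329 for CEACAM1-S). Scarb1, the receptor for high-density lipoprotein, gave 0.83 ± 0.19 in CEACAM1-L cells and −0.18 ± 0.19 in those with CEACAM1-S (limma, adjusted p = 0.544). The fifth gene of the list, Pdap1, has no known part in sterol synthesis, and it gave 0.04 ± 0.10 and −0.25 ± 0.10 (limma, adjusted p = 0.0629 for CEACAM1-S). Steap2, a metal reductase, was higher in CEACAM1-L cells, by 0.61 ± 0.10, with 0.02 ± 0.10 in CEACAM1-S cells (limma, adjusted p = 0.941). Of 18 tested genes for mitochondrial proteins, 7 (38.9%) were higher and 1 lower in CEACAM1-L cells, and 4 (22.2%) higher and 1 lower in CEACAM1-S cells, shares near those of the chromosome. Acads, which starts the oxidation of short fatty acids, gave 0.90 ± 0.13 and 0.11 ± 0.13 (limma, adjusted p = 0.607 for CEACAM1-S), and Hadhb, of the trifunctional protein for long ones and within the first 50 Mb, gave 0.56 ± 0.20 and 0.83 ± 0.20 (limma, adjusted p = 0.003 for CEACAM1-S). Aldh2, the mitochondrial aldehyde dehydrogenase, was the member lower in both, at −0.22 ± 0.09 and −0.40 ± 0.09 (limma, adjusted p = 0.00128 for CEACAM1-S). Nipsnap2, a mitochondrial matrix protein, gave 0.78 ± 0.15 and 0.58 ± 0.15 (limma, adjusted p = 0.0046 for CEACAM1-S). The malate dehydrogenase Mdh2 and the oxidase subunit Cox6a1 gave 0.27 ± 0.15 and 0.41 ± 0.12 in CEACAM1-L cells and −0.21 ± 0.15 and 0.14 ± 0.12 in CEACAM1-S cells, neither of the CEACAM1-S values past the threshold (limma, adjusted p = 0.345 and 0.474).

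Of 26 tested genes for DNA replication, repair and the cell cycle, 11 (42.3%) were higher and 1 lower in CEACAM1-L cells, with a median of 0.30, and 5 (19.2%) were higher and 1 lower in CEACAM1-S cells, with a median of 0.01, again near the shares of the chromosome. Cdc7, the kinase that fires replication origins, gave 0.70 ± 0.11 and 0.23 ± 0.11 (limma, adjusted p = 0.135 for CEACAM1-S). Chek2, the DNA damage checkpoint kinase, gave 0.73 ± 0.16 and 0.48 ± 0.16 (limma, adjusted p = 0.0349 for CEACAM1-S), and Brca2, the homologous recombination factor and the one member lower in CEACAM1-L cells, gave −0.50 ± 0.18 and −0.01 ± 0.18 (limma, adjusted p = 0.99 for CEACAM1-S). Of 10 tested ribosomal and translation genes, 3 were higher and 1 lower in CEACAM1-L cells, and 2 higher and 1 lower in CEACAM1-S cells. Rpl9, the gene with the brightest mean signal of its window, gave 0.06 ± 0.08 and −0.11 ± 0.08 (limma, adjusted p = 0.364 for CEACAM1-S), and Denr, which helps ribosomes restart after short reading frames, −0.85 ± 0.17 and −0.32 ± 0.17 (limma, adjusted p = 0.179 for CEACAM1-S). Of 5 tested heat shock proteins and co-chaperones, 3 were higher in CEACAM1-L cells and 1 in CEACAM1-S cells. Dnajb6, a co-chaperone of the first 50 Mb, gave 1.06 ± 0.14 and 0.41 ± 0.14 (limma, adjusted p = 0.031 for CEACAM1-S), and the small heat shock protein Hspb8 0.62 ± 0.11 and 0.22 ± 0.11 (limma, adjusted p = 0.168 for CEACAM1-S).

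Genes often used as steady references lie on this chromosome. Actb, beta-actin, had 13.96, 14.03, 14.03 and 13.74 in CEACAM1-L cells and 14.02, 13.77, 14.02 and 14.06 in CEACAM1-S cells, against 13.80, 13.99, 14.04 and 13.88 in control cells. Its groups overlapped fully, with 0.01 ± 0.09 and 0.04 ± 0.09 (limma, adjusted p = 0.811 for CEACAM1-S). Gusb, beta-glucuronidase, gave 0.35 ± 0.10 and 0.20 ± 0.10 (limma, adjusted p = 0.148 for CEACAM1-S), and Rplp0, a ribosomal stalk protein, 0.25 ± 0.10 and 0.52 ± 0.10 (limma, adjusted p = 5.15e-04 for CEACAM1-S). Of 10 tested genes of the actin cytoskeleton and adhesion, 5 (50%, beside 42.2% of the chromosome) were higher and 0 lower in CEACAM1-L cells, and 1 was higher and 1 lower in CEACAM1-S cells. Fscn1, an actin-bundling protein of cell protrusions, had 10.59, 9.98, 10.24 and 10.19 in CEACAM1-L cells and 9.55, 9.88, 9.65 and 9.67 in CEACAM1-S cells, against 9.71, 9.30, 9.48 and 9.42 in control cells. The CEACAM1-L arrays lay above all others, with 0.77 ± 0.12, and CEACAM1-S cells gave 0.21 ± 0.12 (limma, adjusted p = 0.224). Rac1, the GTPase of membrane ruffles, gave 0.47 ± 0.12 and 0.40 ± 0.12 (limma, adjusted p = 0.0153 for CEACAM1-S), and Arpc1a, of the actin-branching complex, 0.47 ± 0.11 and 0.08 ± 0.11 (limma, adjusted p = 0.671 for CEACAM1-S). Of 6 tested Notch, Wnt and Hedgehog genes, 4 were higher in CEACAM1-L cells, and 1, Evc2, was higher and 1, Msx1, lower in CEACAM1-S cells. Evc2, a ciliary protein of the Hedgehog pathway, gave 0.81 ± 0.11 and 0.47 ± 0.11 (limma, adjusted p = 0.00168 for CEACAM1-S). Cdk14, a kinase that acts with cyclin Y on Wnt receptors, gave 0.47 ± 0.16 and −0.17 ± 0.16 (limma, adjusted p = 0.511 for CEACAM1-S). Of 7 tested genes of MAP kinase and Ras signalling, 1 was higher and 1 lower in either line. Gnb2, a beta subunit of G proteins, gave 0.51 ± 0.10 and −0.04 ± 0.10 (limma, adjusted p = 0.831 for CEACAM1-S), and Sh2b2, an adaptor of insulin receptor signalling, −0.53 ± 0.18 and −0.83 ± 0.18 (limma, adjusted p = 0.00148 for CEACAM1-S).

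The size of the CEACAM1-L shift varied with the level of the gene. In 4 groups of equal size by mean signal, the median difference from control was 0.08 in the dimmest group, with mean signals of 4.59 to 5.83, and 0.32, 0.34 and 0.29 in the others. In the dimmest group 28 of 157 genes (17.8%) were higher, against 84 of 156 (53.8%) in the brightest. Of all tested genes, at any level, 18.2% were higher. Genes of other chromosomes were not split by level, so this variation cannot be called particular to chromosome 5. For CEACAM1-S cells the 4 medians were 0.06, 0.02, 0.10 and 0.04. At the edge of the detection rule, 17 genes were detected on exactly 4 arrays, with means of 4.59 to 4.80, and 23 genes of chromosome 5 missed it at 3 arrays, with means of 4.5 to 4.75. The brightest of the 17, Slc46a3, averaged 4.97 in CEACAM1-L cells and 4.91 in those with CEACAM1-S, against 4.5 in control cells, and the brightest of the 23, Zfp11, 4.68 and 4.65, against 4.91. For the 268 members with more than 1 passing probe, all probes of a gene had the same sign in 195 genes for CEACAM1-L minus control, in 183 for CEACAM1-S minus control and in 198 for CEACAM1-L minus CEACAM1-S.

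Promoter content did not sort the members by their shift in a simple order. Split into 3 groups by CG count, the median difference between CEACAM1-L and control cells was 0.27 with 1 to 19, 0.33 with 20 to 29 and 0.18 with 30 to 61. The Mvk promoter shown above faces that of Mmab, a gene of vitamin B12 metabolism, and their start sites lie 242 bases apart. Mmab gave 0.61 ± 0.15 in CEACAM1-L cells and 0.43 ± 0.15 in those with CEACAM1-S (limma, adjusted p = 0.0428). Among 29 pairs of tested genes with opposite strands and start sites within 1000 bases of each other, both members were on the positive side in 19 pairs and both on the negative side in 4 for CEACAM1-L minus control, and in 9 and 7 for CEACAM1-S minus control. The signs were opposite in 5 and 12 pairs, and the remaining pair of each held a difference too small to sign after rounding. Over the chromosome, 74.1% and 56.8% of genes were positive in these comparisons. Whether facing genes share a sign more often than other genes was not tested.

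Of the 51 genes described above with a CEACAM1-S call, 39 lost it when arrays were scaled to their medians, 5 within array set A alone and 21 within set B alone, which hold 2 arrays a group. With the array set as a block all 51 were kept, and Hsph1, Hspb8, Oas2 and Pdap1 also passed in CEACAM1-S cells (limma, adjusted p = 0.015, 0.04, 0.0399 and 0.0418). That fit had 276 chromosome 5 genes higher and 56 lower in CEACAM1-L cells, and 133 higher and 68 lower in CEACAM1-S cells, both against control cells, and 209 higher and 30 lower in CEACAM1-L against CEACAM1-S cells. The sets were drawn from the within-group spread of these same values, so the block removes part of that spread by construction. The kept and added calls are therefore no independent check. The chromosome 5 counts of that fit stand without the share of all tested genes called. A few calls were also lost when a single array was left out, for most of these genes whichever of several arrays it was. The Chek2 call was lost without CEACAM1-S replicate 1, 2 or 4 or control replicate 1, 2 or 3 (0.41 to 0.50, limma, adjusted p = 0.0506 to 0.102). The Dnajb6 call was lost without CEACAM1-S replicate 1 or 4 or control replicate 1 or 4 (0.28 to 0.41, limma, adjusted p = 0.0523 to 0.134), and that of Gpr146 without CEACAM1-S replicate 2 (0.48, limma, adjusted p = 0.0568). The Mvk call was lost without CEACAM1-S replicate 1 or 4 or control replicate 1, 3 or 4 (0.52 to 0.61, limma, adjusted p = 0.0658 to 0.109). That of Mmab was lost without any one of the CEACAM1-S and control arrays other than CEACAM1-S replicate 2, and without CEACAM1-L replicate 2 (0.33 to 0.47, limma, adjusted p = 0.0524 to 0.135). That of Oasl1 was lost without CEACAM1-S replicate 1, 3 or 4 or control replicate 1, 3 or 4 (−0.56 to −0.43, limma, adjusted p = 0.0653 to 0.137), and that of Rac1 without CEACAM1-S replicate 4 or control replicate 1 (0.33 and 0.30, limma, adjusted p = 0.0698 and 0.0667).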

How the data were processed

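Total RNA of 12 MC38 samples was read on Illumina mouse bead arrays with 1 colour. Per the file headers, the authors' non-normalized table gives each probe a signal intensity and a detection p-value on each array. The authors' deposited processed values are log2 signals, with a normalization not given in the sources used here. Lumi 2.6.0 appears in the submitters' processing notes, which assign it no step.

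Of 45281 probes, 34885 had 1 symbol in the platform annotation, 18 had several and 10378 had none. Intensities were background-corrected, quantile-normalized and put on a log2 scale with neqc (offset 16) in limma 3.58.1 under R 4.3.3. A probe was kept if 4 or more arrays had a detection p-value under 0.05, and each gene was read from the kept probe with the highest mean, giving 9100 genes. All 12 arrays entered 1 fit of 3 group means by lmFit, followed by eBayes with a trend (9 residual and 15.5 prior degrees of freedom). P-values were two-sided and were adjusted over all 9100 genes by Benjamini and Hochberg's method and a threshold of 0.05. Errors of differences are standard errors of the fit. Where no array of a group detected a probe, the bound compares the brighter mean with the dim group's mean of the higher of its own signal and each array's lowest detected signal. The number of arrays limits the precision.

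Members, windows, lists and the rule for the genes named were chosen with earlier results of these data known. The rule took the brightest gene of each 10 Mb window, for each comparison the 8 most positive and 8 most negative differences (past the threshold, groups not overlapping), up to 5 members per list, the ends of the longest runs and the brightest genes at the edge of the detection rule. It named 108 genes, of which 77 are described, and 7 further genes were chosen after their values were seen. Replicate numbers come from the sample titles and do not pair samples across groups. The alternatives changed the normalization, background correction, filters, probe summary, covariates, weights, source of values and samples used. Sequences are from RefSeq (GRCm38.p6).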

Additional observations from a re-analysis of the deposited data

Results flagged for a closer look

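Among the genes described and the array medians, 1 array stood far from the other 3 of its group in 22 of the 264 groups of 4 examined. Dixon's gap test was used, which chance passes in about 1 of 20 groups. Values are log2 signals, apart from the median shift. On CEACAM1-S replicate 3, the median shift over the first 50 Mb of chromosome 5 was 0.31, against 0.35 to 0.36 on the other 3 arrays of that line. Actb was lower in CEACAM1-S replicate 2 (13.77) than on the other 3 arrays of that group (14.02 to 14.06). In CEACAM1-L replicate 2, Chek2 read 6.77, below the other 3 arrays of its group (6.95 to 6.98). The Csn3 signal of CEACAM1-L replicate 4 was 8.59, against 7.15 to 7.24 on the 3 arrays beside it. Cxcl10 was higher in CEACAM1-S replicate 4 (8.71) than on the other 3 arrays of that group (8.61 to 8.62). In CEACAM1-L replicate 4, Fgfrl1 read 7.43, below the other 3 arrays of its group (7.81 to 7.88). The Fgfrl1 signal of control replicate 1 was 5.69, against 6.16 to 6.23 on the 3 arrays beside it. Grsf1 was higher in CEACAM1-L replicate 1 (10.63) than on the other 3 arrays of that group (10.27 to 10.32). In CEACAM1-L replicate 3, Gusb read 10.70, above the other 3 arrays of its group (10.54 to 10.56). The Hadhb signal of control replicate 3 was 6.61, against 7.10 to 7.19 on the 3 arrays beside it. Kdr was higher in CEACAM1-S replicate 3 (5.73) than on the other 3 arrays of that group (4.91 to 5.04). In CEACAM1-L replicate 3, Kmt2e read 7.62, above the other 3 arrays of its group (7.34 to 7.38). The Kmt2e signal of control replicate 1 was 6.91, against 6.35 to 6.42 on the 3 arrays beside it. Lat2 was lower in CEACAM1-L replicate 4 (8.92) than on the other 3 arrays of that group (9.31 to 9.38). In CEACAM1-S replicate 2, Lat2 read 8.10, above the other 3 arrays of its group (6.87 to 6.92). The Letm1 signal of control replicate 2 was 7.67, against 7.26 to 7.32 on the 3 arrays beside it. Mmab was lower in control replicate 4 (5.93) than on the other 3 arrays of that group (6.31 to 6.35). In CEACAM1-L replicate 4, Msx1 read 7.40, below the other 3 arrays of its group (8.01 to 8.13). The Nipal1 signal of control replicate 2 was 7.08, against 6.77 to 6.82 on the 3 arrays beside it. Nipsnap2 was lower in CEACAM1-S replicate 2 (7.39) than on the other 3 arrays of that group (7.84 to 7.88). In CEACAM1-S replicate 2, Scarb1 read 5.17, above the other 3 arrays of its group (4.60 to 4.67). The Srpk2 signal of control replicate 3 was 6.63, against 6.88 to 6.93 on the 3 arrays beside it.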

How the results depend on the processing

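Medians kept their sign under the alternatives run, except that of CEACAM1-S minus control beyond 50 Mb, which rounded to 0.00 in array set B and with normalization without chromosomes 5 and 9. Leaving out 1 array at a time moved the median of all 625 genes over 0.25 to 0.28 for CEACAM1-L minus control, 0.05 to 0.07 for CEACAM1-S minus control and 0.18 to 0.21 for CEACAM1-L minus CEACAM1-S. The counts moved over 236 to 263 higher and 41 to 52 lower, over 93 to 123 and 46 to 58, and over 161 to 197 and 20 to 31. In the first 50 Mb the medians moved over 0.50 to 0.55, 0.33 to 0.36 and 0.17 to 0.20, and beyond it over 0.18 to 0.21, −0.04 to −0.01 and 0.18 to 0.21. The values below are in the same order of comparisons. Array set A alone gave chromosome medians of 0.31 and 0.22 for the comparisons of CEACAM1-L with control and with CEACAM1-S, and 0.22 for the second beyond 50 Mb. Set B alone, with 2 arrays a group, gave 160 higher and 22 lower, 50 and 25, and 61 and 8, with 0.09 for CEACAM1-S over the chromosome, 0.00 for it beyond 50 Mb, and 0.16 for CEACAM1-L minus CEACAM1-S in the first 50 Mb. The authors' log2 values gave smaller medians, 0.14 (CEACAM1-L minus control) and 0.12 (minus CEACAM1-S) over the chromosome, 0.35, 0.20 and 0.11 in the first 50 Mb, and 0.09 and 0.12 beyond it. Without background correction they were 0.17 and 0.13, then 0.39, 0.21 and 0.14, then 0.11 and 0.13. Without the detection filter they were 0.06, 0.02 and 0.06, then 0.13, 0.12 and 0.05, then 0.04 and 0.06 for the comparisons of CEACAM1-L. Probes detected on all 12 arrays gave 0.30 over the chromosome for CEACAM1-L and 0.60 and 0.39 in the first 50 Mb. The mean of a gene's probes gave 0.49 and 0.30 there, and normalization without chromosomes 5 and 9 gave 0.30 for CEACAM1-L over the chromosome and 0.39 for CEACAM1-S in the first 50 Mb. Scaling to the median gave counts of 37 and 17, 7 and 10, and 27 and 10, medians of 0.14 and 0.09 over the chromosome, 0.41 and 0.08 in the first 50 Mb and 0.07 and 0.09 beyond it (CEACAM1-L minus control and minus CEACAM1-S), with all-gene medians of −0.11 in both. The cause of these changes was not tested. Counts under the alternatives lack the share of all tested genes called, so no change particular to chromosome 5 can be read from them. A boundary at 40 or 60 Mb, added after seeing the data, gave CEACAM1-S medians of 0.36 and 0.35 before it and −0.02 and −0.04 beyond it. Deviations of same-numbered arrays correlated between −0.198 and 0.187 across genes, so the numbers are only names. With the replicate block, 253 genes were higher and 47 lower in CEACAM1-L cells against control, 112 and 56 in CEACAM1-S cells against control, and 176 and 29 in CEACAM1-L against CEACAM1-S cells, and the medians were 0.26, 0.05 and 0.19; of 51 described CEACAM1-S calls only that of Mmab was lost (limma, adjusted p = 0.0573). For the described genes in CEACAM1-S minus control, 1874 alternative values kept direction and side of the threshold, 108 fell short of it and 19 newly passed it. Between 14717 and 16071 of 45281 probes were detected per array, and differences among genes below detection could not be seen.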

Other observations

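8 windows outside chromosome 5 also had window medians of 0.2 or more in CEACAM1-L cells against control cells. On chromosome 2 they were 0.38 from 20 to 30 Mb (81 genes) and 0.38 from 30 to 40 Mb (86 genes), where CEACAM1-S cells gave 0.03 and 0.00 against control cells. The 130 to 140 Mb window of chromosome 1 (44 genes) gave 0.33 in CEACAM1-L cells and −0.01 in CEACAM1-S cells. Both lines stood above control at 100 to 110 Mb of chromosome 14 (8 genes), with 0.35 and 0.35, at 120 to 130 Mb of it (11 genes), with 0.43 and 0.31, and in the first 10 Mb of chromosome 9 (13 genes), with 0.42 and 0.34. The others were 140 to 150 Mb of chromosome X (11 genes), with 0.30 and 0.16, and 10 to 20 Mb of chromosome 12 (14 genes), with 0.21 and 0.06. These are descriptions of the same arrays, with no test.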
